A study of Drosophila melanogaster with 30 samples.

Results

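Ovarian somatic cells (OSCs) are a cultured line derived from the somatic follicle lineage of the *Drosophila melanogaster* ovary. OSCs from which *l(3)mbt* had been deleted (Δ*l(3)mbt* OSCs) were set against germ cells sorted from adult ovaries, which addresses how complete the germline state of the cultured cells was after loss of L(3)mbt. The comparison took every library of these groups, 4 of Δ*l(3)mbt* OSCs and 3 of *vas*-GFP-positive cells, which are 7 of the 30 libraries of the series. Of the 17807 genes listed, 10286 averaged 2 or more normalized counts across these 7 libraries and were tested. The 4 libraries of wild-type OSCs and the 3 libraries of *vas*-GFP-negative cells gave the level of each gene in the parental line and in the ovarian soma. Whether GFP-positive and GFP-negative libraries of the same number came from the same sort is not stated.

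The study asked how the transcription factor Ovo controls genes of the germline piRNA pathway. Δ*l(3)mbt* OSCs and wild-type OSCs were untreated cultures grown at 26 °C, and the labels give no clone for the deletion line. The sorted cells came from ovaries of adult flies whose endogenous *vas* locus carries an AID:EGFP tag, so that GFP was made under the control of *vas* itself. Ovaries of pooled flies were dissociated with trypsin and collagenase for 1 h at 30 °C before GFP-positive and GFP-negative cells were collected. All libraries used here were strand-specific and made from rRNA-depleted total RNA. The study describes the replicates of each group as distinct samples, without saying whether these were separate cultures or separate pools of flies, so p-values measure the spread between such samples. Culture, dissociation, sorting and table of origin differed together with cell type, and cannot be told apart from it.

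Germline piRNA biology in the fly ovary rests on proteins that somatic follicle cells lack. In germ cells, piRNA clusters are transcribed from both strands through Rhino and its partners, their transcripts are exported by a dedicated route, and the PIWI proteins Aubergine and AGO3 amplify piRNAs in nuage, a perinuclear granule built on the helicase Vasa and on Tudor-domain proteins. Follicle cells and OSCs use a shorter pathway in which Piwi, supplied by Armitage and Yb, acts alone. L(3)mbt is a chromatin protein with MBT repeats that represses germline genes in somatic tissues, and Ovo is a zinc finger protein that activates genes of the female germline.

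Libraries of Δ*l(3)mbt* OSCs held 9675832 to 14064192 counted reads with 10499 to 11065 genes detected, and those of *vas*-GFP-positive cells held 3236770 to 6203768 with 8719 to 9401 genes detected. One read was worth 0.568 to 0.851 normalized counts in Δ*l(3)mbt* OSCs and 1.13 to 2.20 in *vas*-GFP-positive cells, so a level of a few counts in germ cells rests on very few reads. Replicates differed by a median of 0.122 to 0.166 on the log2 scale between pairs of Δ*l(3)mbt* libraries and by 0.428 to 0.487 between pairs of *vas*-GFP-positive libraries. Wild-type replicate 1 stood apart from the other wild-type libraries, and without it 1019 genes were higher and 750 lower in Δ*l(3)mbt* OSCs than in the parental line, against 1049 and 797 with it. Marker levels differed between the sorted fractions. Across 15 follicle cell and eggshell markers the level in *vas*-GFP-positive cells was 2.12 to 35.4% of that in *vas*-GFP-negative cells (median 3.25%). Across 10 germ cell markers the level in *vas*-GFP-negative cells was 0.591 to 7.48% of that in *vas*-GFP-positive cells (median 1.57%). Both marker sets were chosen after their values were seen, and the germ cell set includes *vas*, whose GFP tag was used for the sort.

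The deleted gene was examined first. *l(3)mbt* (3R, 27266326 to 27273273, BDGP6) had 3859, 3561, 3584 and 3703 normalized counts in Δ*l(3)mbt* OSCs, against 1676, 1685 and 1768 in *vas*-GFP-positive cells. The groups did not overlap, which held for 52.9% of all tested genes, and the log2 difference was 1.10 (SE 0.06, adjusted p = 1.75e-06 from limma), a call lost when libraries were scaled by total counted reads (0.88) or by quantile normalization (0.80). Wild-type OSCs had 3666 ± 490.5 (SD, n = 4), a log2 difference of -0.02 for Δ*l(3)mbt* over wild-type cells (adjusted p = 0.91 from limma). The count covers the whole gene, and the extent of the deletion is not given in the sources used here. It therefore does not check the label, and the libraries are described below as labelled.

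Comparing Δ*l(3)mbt* OSCs with *vas*-GFP-positive cells, 1271 genes were higher (12.4% of those tested) and 1294 lower (12.6%) by more than 2-fold at an adjusted p under 0.01. For 3142 genes (30.5%) the 95% interval of the difference lay within 2-fold either way. These shares are the background for the counts of list members below. The median log2 difference over all tested genes was -0.04 and its median size 0.89. Scaling by total counted reads shifted the median of all genes to -0.26 and gave 1001 higher and 1632 lower genes, so that 38% of called genes were higher, against 49.6% with median-of-ratios scaling.

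**Figure D1:**
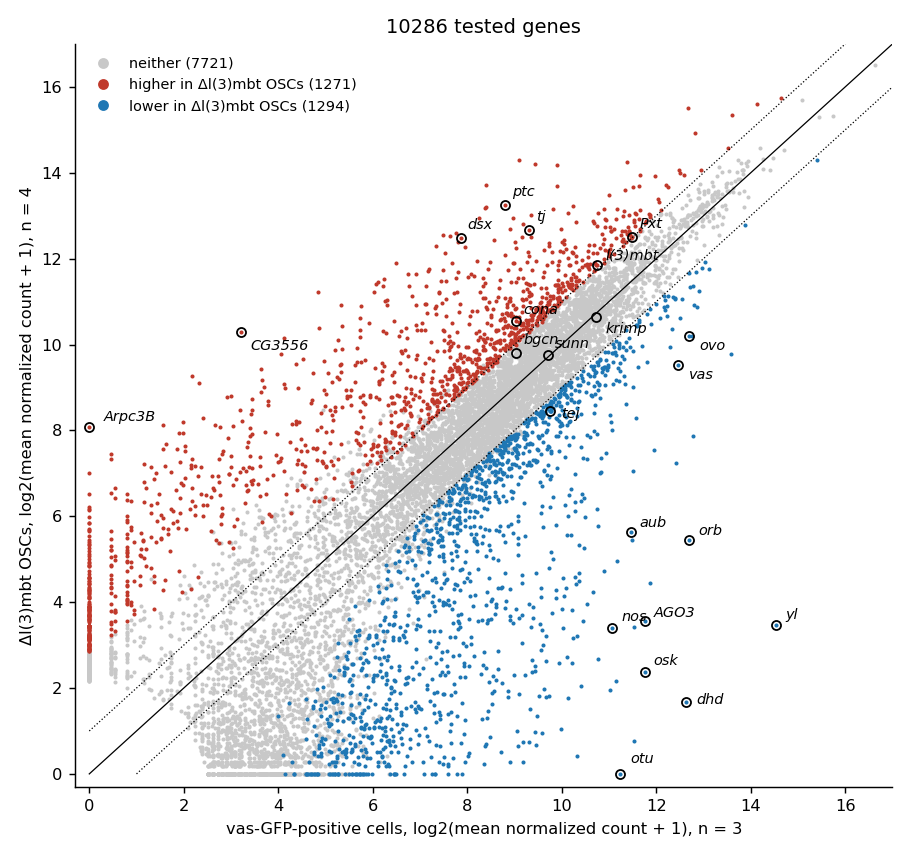
Mean level of each of 10286 genes in Δ*l(3)mbt* OSCs (vertical axis, n = 4) against *vas*-GFP-positive cells (horizontal axis, n = 3), both as log2(mean normalized count + 1). Red points are the 1271 genes higher and blue points the 1294 genes lower in Δ*l(3)mbt* OSCs, the solid line marks equal levels and dotted lines mark 2-fold. *otu*, *dhd*, *osk* and *AGO3* lie at the bottom right, *ovo*, *vas* and *tej* lie closer to the line, and *sunn* and *krimp* lie on it.

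Genes of the germline piRNA pathway were mostly below the germ cell level in Δ*l(3)mbt* OSCs. They ranged from a few reads (*moon*) to near the germ cell level (*krimp*). Of 13 pathway genes, 11 were lower than in *vas*-GFP-positive cells, none was higher, and 2 lay within 2-fold. The median log2 difference was -1.85. The list median was 27.1% of the germ cell level in Δ*l(3)mbt* OSCs (*cuff*) and 5.60% in wild-type OSCs (*qin*). These medians belong to different genes, and neither gene rose over wild-type OSCs. Over the 13 genes the median log2 difference of Δ*l(3)mbt* from wild-type OSCs was -0.04. Summed over the 13 genes, Δ*l(3)mbt* OSCs had 4739 to 5214 normalized counts and *vas*-GFP-positive cells 24298 to 25105.

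The *ovo* gene itself was above its level in wild-type OSCs and below that in germ cells. *ovo* (X, 5048273 to 5070929) had 1255, 1124, 1038 and 1314 normalized counts in Δ*l(3)mbt* OSCs, against 6869, 6953 and 5928 in *vas*-GFP-positive cells. The groups were well apart, with a log2 difference of -2.48 (SE 0.10, adjusted p = 3.55e-07 from limma). The Δ*l(3)mbt* level was 18% of the germ cell level, while that of wild-type OSCs was 0.187% (12.3 ± 0.824, SD, n = 4). The gene count does not separate *ovo* transcripts from the *shavenbaby* transcripts of the same locus.

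*vas* (2L, 15061656 to 15074311), which encodes the nuage helicase, had 721, 658, 772 and 810.3 normalized counts in Δ*l(3)mbt* OSCs, against 6179, 5498 and 5182 in *vas*-GFP-positive cells. All Δ*l(3)mbt* libraries lay below all germ cell libraries, at 13.2% of their mean (log2 difference -2.92, SE 0.10, adjusted p = 1.28e-07 from limma). *vas* shares exons with *solo*, so its count carries some uncertainty. *tej*, a Tudor-domain partner of Vasa, had 304, 346, 391 and 360.1 in Δ*l(3)mbt* OSCs and 876, 798 and 912 in *vas*-GFP-positive cells. It reached 40.6% of the germ cell level with groups apart (log2 difference -1.30), and wild-type OSCs had 1.05 ± 0.938 (SD, n = 4). *boot* (listed as *CG13741*), a factor in the export of piRNA precursors, had 421, 511, 454 and 458 in Δ*l(3)mbt* OSCs and 923, 1215 and 833 in *vas*-GFP-positive cells. At 46.5% it came closest to the germ cell level of the 11 genes called lower, with a log2 difference of -1.09 that became -0.92 and was no longer called without *vas*-GFP-positive replicate 2. *Nxf3*, the export receptor for cluster transcripts, stood at 536 ± 18.1 (SD, n = 4) in Δ*l(3)mbt* OSCs and 1779 ± 644 (SD, n = 3) in *vas*-GFP-positive cells, 30.1% of the germ cell level.

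The PIWI proteins of the amplification loop stayed near the bottom of the scale. *aub* (2L, 10997819 to 11001476) had 56.1, 44.0, 57.4 and 36.6 normalized counts in Δ*l(3)mbt* OSCs, against 2778, 2892 and 2784 in *vas*-GFP-positive cells. This was 1.72% of the germ cell level (log2 difference -5.85, SE 0.19, adjusted p = 1.1e-07 from limma), with wild-type OSCs at 18.4 ± 9.66 (SD, n = 4). *AGO3* (3L, 23554593 to 23689640) had 6.51, 12, 16.5 and 8.51 in Δ*l(3)mbt* OSCs, against 3416, 3698 and 3329 in *vas*-GFP-positive cells. No library came near the other group, and the level was 0.312% of that in germ cells (log2 difference -8.27, SE 0.30, adjusted p = 2.01e-07 from limma). Wild-type OSCs had 50.3 ± 13.9 *AGO3* counts (SD, n = 4). *qin*, a Tudor-domain protein that keeps the loop heterotypic, reached 2.76% of the germ cell level in Δ*l(3)mbt* OSCs and 5.60% in wild-type OSCs.

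The transcription branch was split. *rhi*, the chromodomain protein that marks dual-strand clusters, had 4.85 ± 2.12 normalized counts in Δ*l(3)mbt* OSCs and 323 ± 122 in *vas*-GFP-positive cells, 1.5% of the germ cell level. *moon*, which recruits the initiation machinery to clusters, had 1.07 ± 1.24 in Δ*l(3)mbt* OSCs and 55.6 ± 33.6 in *vas*-GFP-positive cells, a level of few reads in both. *cuff*, which protects cluster transcripts, had 46.1 ± 7.11 in Δ*l(3)mbt* OSCs and 169.8 ± 89.2 in *vas*-GFP-positive cells (log2 difference -1.75), a call lost when any of Δ*l(3)mbt* replicates 1, 2 or 3 was left out. *del*, the adaptor between Rhino and its partners, had 876 ± 109 in Δ*l(3)mbt* OSCs and 1141 ± 214 in *vas*-GFP-positive cells, with a 95% interval of the log2 difference of -0.71 to -0.04. *krimp*, a nuage scaffold, had 1539, 1553, 1602 and 1688 in Δ*l(3)mbt* OSCs and 1576, 1517 and 1990 in *vas*-GFP-positive cells. These groups overlapped, at 94.2% of the germ cell level (interval -0.32 to 0.16), and wild-type OSCs were already at 90.3%. *BoYb*, a germline Yb homologue, reached 27.6% of the germ cell level in Δ*l(3)mbt* OSCs and 76.0% in wild-type OSCs.

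**Figure D2:**
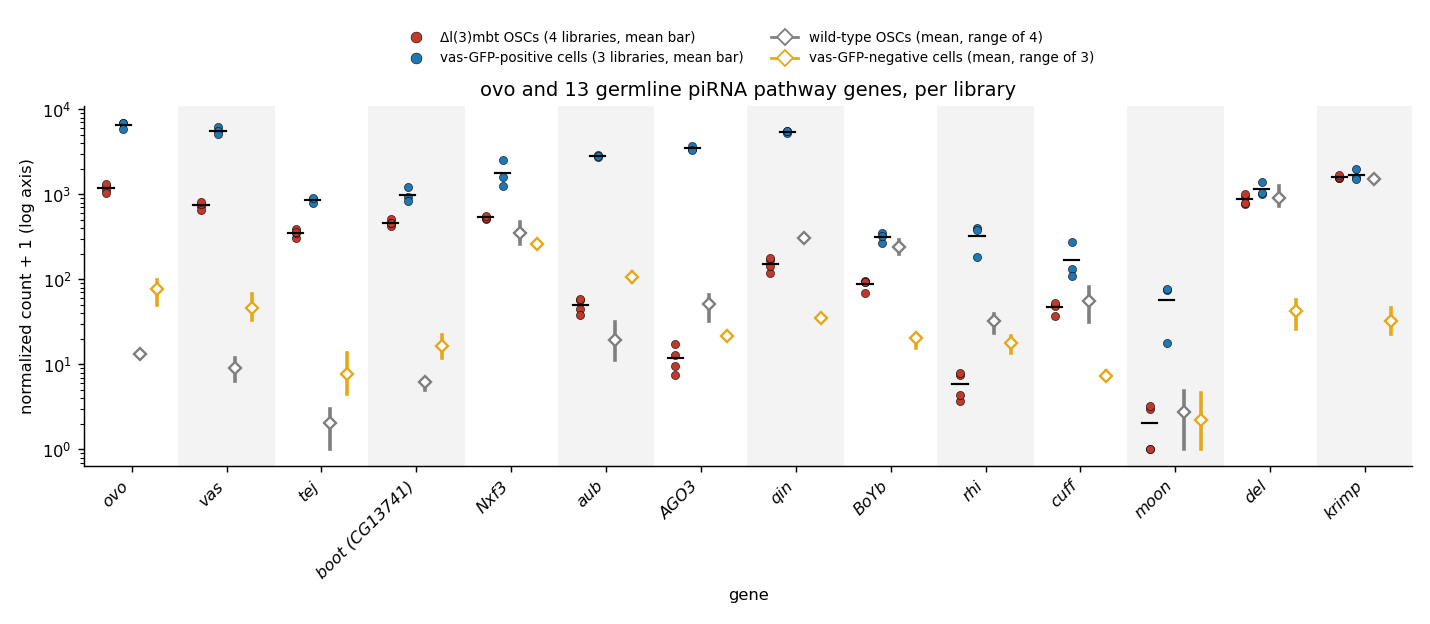
Normalized counts (plus 1, log axis) of *ovo* and 13 germline piRNA pathway genes in each Δ*l(3)mbt* OSC library (red) and each *vas*-GFP-positive library (blue), with bars at group means. Grey and yellow diamonds give the mean and range of wild-type OSCs and *vas*-GFP-negative cells. *ovo*, *vas*, *tej* and *boot* stand between wild-type OSCs and germ cells, *AGO3*, *qin*, *BoYb* and *rhi* stand below wild-type OSCs, and *del* and *krimp* are close in OSCs of both genotypes and germ cells.

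Comparison with wild-type OSCs separated genes higher in the Δ*l(3)mbt* line from genes that wild-type OSCs already expressed. Over all 9611 genes tested in that comparison, 1049 were higher (10.9%) and 797 lower (8.29%) in Δ*l(3)mbt* OSCs at a log2 difference beyond 0.6 and an adjusted p under 0.05. Among the 13 pathway genes, 5 were higher (*tej*, *vas*, *boot*, *aub* and *Nxf3*) and 4 lower (*AGO3*, *qin*, *BoYb* and *rhi*). The log2 differences of *tej*, *vas* and *boot* were 7.89, 6.40 and 6.30, while those of *aub* and *Nxf3* were 1.45 and 0.61. The lower genes differed by -2.65 (*rhi*), -2.21 (*AGO3*), -1.48 (*BoYb*) and -1.06 (*qin*). *ovo*, outside this list, differed by 6.48 (SE 0.12, adjusted p = 2.43e-13 from limma).

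Further nuage genes and the piRNA genes shared with the soma were closer to the germ cell level, with medians of 89.9% and 109.7% of it. The same medians were already 77.6% and 120.1% in wild-type OSCs, and 80.6% and 79.8% in *vas*-GFP-negative cells. Of 7 other germline piRNA and nuage genes, 6 lay within 2-fold, among them the helicase gene *spn-E* (89.9% of the germ cell level) and *mael* (94.8%), and 1 was lower. This was *CG2678*, which encodes the Rhino-guiding zinc finger protein Kipferl, at 106 ± 9.81 in Δ*l(3)mbt* OSCs and 540.3 ± 25.9 in *vas*-GFP-positive cells. Of 27 genes of the shared or somatic pathway, 5 were higher, 4 lower and 13 within 2-fold. The shares higher (18.5%) and lower (14.8%) were near those of all tested genes (12.4% and 12.6%). *piwi* had 8889, 8371, 9019 and 9693 in Δ*l(3)mbt* OSCs and 7909, 7468 and 7412 in *vas*-GFP-positive cells, 118% of the germ cell level. *fs(1)Yb*, the Yb body protein of follicle cells, had 1870 ± 80.2 in Δ*l(3)mbt* OSCs and 336 ± 74.5 in *vas*-GFP-positive cells (log2 difference 2.50), and *armi* and *nxf2* differed by 2.31 and 1.97. *SoYb* and *tsu*, the other higher genes, differed by 1.01 and 1.06, and scaling by total counted reads removed both calls. The lower genes were *wde* (log2 difference -1.55), *Hen1* (-1.41), *arx* (-1.10) and *Nbr* (-1.01). The call of *arx* was lost without any 1 of the Δ*l(3)mbt* libraries or *vas*-GFP-positive replicate 3, and that of *Nbr* without Δ*l(3)mbt* replicate 3 or *vas*-GFP-positive replicate 1 or 2. None of the 27 was called against wild-type OSCs.

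Genes of germline stem cells and cyst development were lower in 9 of 19 cases, higher in none, and within 2-fold in 6. The share within 2-fold (31.6%) was near that of all tested genes (30.5%), while the share lower (47.4%) was above it (12.6%). The list median was 47.0% of the germ cell level in Δ*l(3)mbt* OSCs and 37.9% in wild-type OSCs. *otu*, which promotes oogenesis together with Bam, had no read in any Δ*l(3)mbt* library, against 2518, 2480 and 2208 in *vas*-GFP-positive cells. It was at least 4593-fold lower, taking a floor of 3 reads over the Δ*l(3)mbt* group. *nos*, a translational repressor of stem cells, had 9.51 ± 3.82 in Δ*l(3)mbt* OSCs and 2151 ± 258 in *vas*-GFP-positive cells, 0.442% of the germ cell level. *bam*, the switch from stem cell to cyst, had 6.42 ± 1.81 in Δ*l(3)mbt* OSCs and 751 ± 19.6 in *vas*-GFP-positive cells, below the 51.8 ± 9.55 of wild-type OSCs (log2 difference from wild type -2.94). Its partner *bgcn* behaved differently. *bgcn* had 951, 927, 832 and 874 in Δ*l(3)mbt* OSCs and 607, 613 and 352 in *vas*-GFP-positive cells, with all Δ*l(3)mbt* libraries above. The log2 difference of 0.82 was not called, and its interval (0.37 to 1.26) reached beyond 2-fold. Wild-type OSCs had 44.1 ± 9.83 *bgcn* counts, a log2 difference of 4.32 to Δ*l(3)mbt* OSCs. *zpg*, the germline gap junction innexin, remained at 3.45 ± 1.89 in Δ*l(3)mbt* OSCs against 2258 ± 83.1 in *vas*-GFP-positive cells. *Sxl*, *twin*, *brat*, *mei-P26*, *stwl* and *loqs* were the members within 2-fold, and each had a level in wild-type OSCs of 38.7 to 104% of that in germ cells.

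Genes that localize and translate oocyte RNAs followed, with 11 of 19 lower, none higher and 7 within 2-fold. Their median was 31.7% of the germ cell level in Δ*l(3)mbt* OSCs and 30.2% in wild-type OSCs. *osk*, the pole plasm organizer, had 5.70, 2.67, 2.27 and 5.96 in Δ*l(3)mbt* OSCs, against 4326, 2932 and 3116 in *vas*-GFP-positive cells (0.120%). *orb*, a CPEB translational regulator of the oocyte, had 40.7, 38, 53.4 and 37.5 in Δ*l(3)mbt* OSCs, against 6276, 7122 and 6526 in *vas*-GFP-positive cells (0.638%). In both genes the groups were far apart, with log2 differences of -9.45 and -7.27. *bru1*, which represses *osk* translation, reached 7.22% in Δ*l(3)mbt* OSCs and 8.95% in wild-type OSCs. *swa*, needed to hold *bcd* RNA in place, was the member that rose most over wild-type OSCs. It had 228 ± 17.6 counts in Δ*l(3)mbt* OSCs and 1538 ± 94.1 in *vas*-GFP-positive cells (14.8%), against 1.06 ± 0.958 in wild-type OSCs (log2 difference from wild type 7.26, SE 0.39, adjusted p = 9.53e-09 from limma).

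Meiotic genes had a higher median than the stem cell, oocyte RNA and maternal lists. Of 24 tested, 6 were lower, 2 higher and 6 within 2-fold, with a median of 63.1% of the germ cell level in Δ*l(3)mbt* OSCs and 44.2% in wild-type OSCs. The shares lower (25%), higher (8.33%) and within 2-fold (25%) compare with 12.6%, 12.4% and 30.5% of all tested genes. Against wild-type OSCs, 10 of 23 were higher and none lower. *cona*, a central region protein of the synaptonemal complex, had 1372, 1443, 1561 and 1570 in Δ*l(3)mbt* OSCs, against 649, 499 and 429 in *vas*-GFP-positive cells. Every Δ*l(3)mbt* library exceeded every germ cell library (log2 difference 1.52, SE 0.14, adjusted p = 3.45e-05 from limma), and wild-type OSCs had 20.4 ± 13.1 (SD, n = 4). *sunn*, a component of meiotic cohesin, had 839, 851, 885 and 892 in Δ*l(3)mbt* OSCs and 1007, 704 and 789 in *vas*-GFP-positive cells. The groups overlapped at 104% of the germ cell level (interval -0.22 to 0.36), whereas wild-type OSCs were at 6.17%. *corolla*, another central region protein, reached 70.5% and was within 2-fold.

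Partners of these proteins stayed low. *c(3)G*, the transverse filament protein, had 195 ± 18.6 in Δ*l(3)mbt* OSCs and 1359 ± 66.9 in *vas*-GFP-positive cells (14.4%, with wild-type OSCs at 5.04%). *c(2)M*, a lateral element protein, had 9.44 ± 2.47 in Δ*l(3)mbt* OSCs and 222 ± 122 in *vas*-GFP-positive cells, and *mtrm*, a Polo inhibitor of the oocyte, had 35.1 ± 11 in Δ*l(3)mbt* OSCs and 869 ± 320.5 in *vas*-GFP-positive cells. *ord*, a cohesion protein, had 1 read over all Δ*l(3)mbt* libraries against 699 over the *vas*-GFP-positive libraries. *solo*, also a cohesion protein, stood at 68.5 ± 7.60 in Δ*l(3)mbt* OSCs and 1239 ± 188 in *vas*-GFP-positive cells, but it shares exons with *vas*, so its count is uncertain. The other higher gene was the recombinase *spn-A* (log2 difference 1.84), whose call was lost without any 1 of the 4 Δ*l(3)mbt* libraries and under total-read scaling.

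Maternally loaded products of the late oocyte mostly remained low. Of 19 genes of maternal control and egg activation, 11 were lower, 1 higher and 4 within 2-fold, and the median was 27.7% of the germ cell level in Δ*l(3)mbt* OSCs and 17.5% in wild-type OSCs. *dhd*, a germline thioredoxin, had 2.17 ± 1.52 in Δ*l(3)mbt* OSCs and 6329 ± 753 in *vas*-GFP-positive cells (0.0343%). *wisp*, the oocyte poly(A) polymerase, had 5.40 ± 3.02 in Δ*l(3)mbt* OSCs and 1734 ± 206 in *vas*-GFP-positive cells. *gnu* of the Pan Gu kinase complex and the embryonic linker histone *BigH1* had 10.8 ± 1.59 and 12.5 ± 3.67 in Δ*l(3)mbt* OSCs, against 1402 ± 103 and 883 ± 155 in *vas*-GFP-positive cells. Both were above wild-type OSCs, by 3.59 and 3.57 on the log2 scale, while remaining at 0.770% and 1.41% of the germ cell level. *zld*, the activator of the zygotic genome, was the higher gene (3136 ± 381 in Δ*l(3)mbt* OSCs and 1529 ± 232 in *vas*-GFP-positive cells). Its call was lost under total-read and quantile scaling and without Δ*l(3)mbt* replicate 1 or *vas*-GFP-positive replicate 2, and wild-type OSCs had 3214 ± 723.

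**Figure D3:**
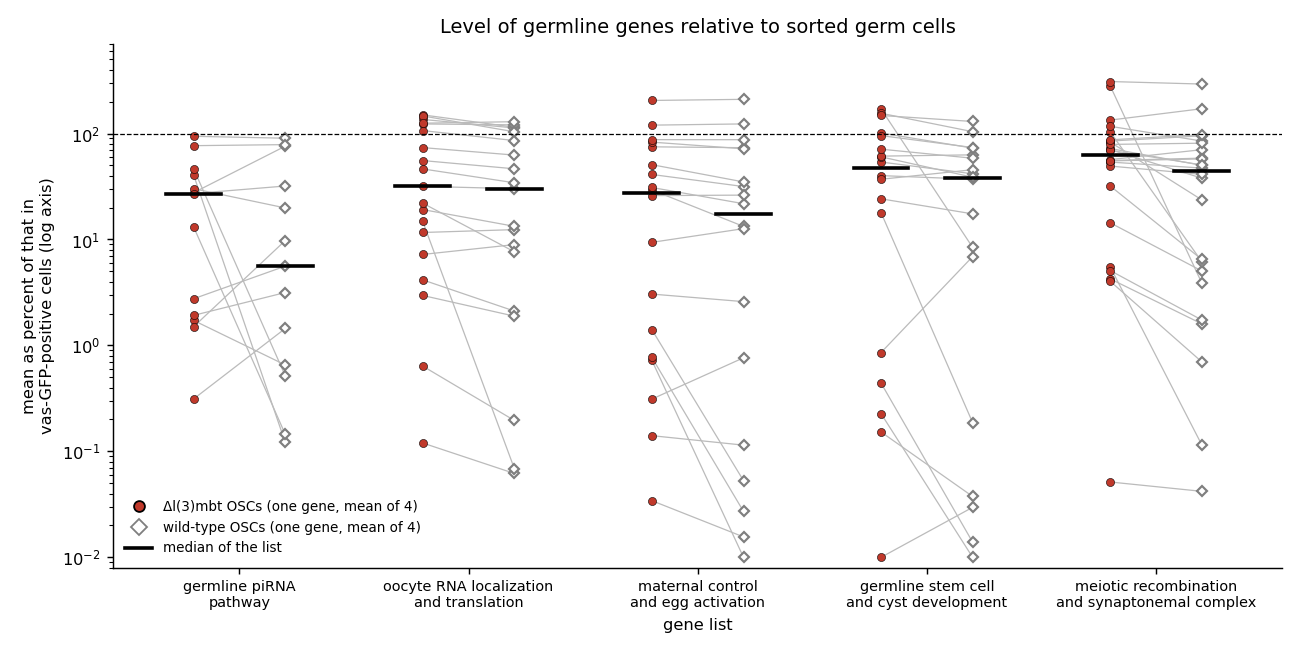
Mean level of each gene as a percent of its mean in *vas*-GFP-positive cells (log axis, dashed line at 100%) in Δ*l(3)mbt* OSCs (red circles) and wild-type OSCs (grey diamonds), for genes with at least 10 normalized counts in *vas*-GFP-positive cells. Lines join the values of a gene, black bars are list medians, and values under 0.01% are drawn at 0.01%. The medians in Δ*l(3)mbt* OSCs and wild-type OSCs were 27.1 and 5.60% for the germline piRNA pathway and 63.1 and 44.2% for meiotic genes. For the germline piRNA pathway they are the values of different genes, *cuff* and *qin*, and do not give the change of a typical gene. Single genes within a list spread over several orders of magnitude.

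Germline genes were also defined without reference to OSCs, as genes higher in *vas*-GFP-positive than in *vas*-GFP-negative cells. Of 10481 genes tested in that comparison, 738 were higher (7.04%) and 837 lower (7.99%). Of the 738 germline-enriched genes, 643 were tested between knockout and parental OSCs, which share no library with the sorted cells. There, 172 (26.8%) were higher and 63 (9.80%) lower in Δ*l(3)mbt* OSCs, whereas 10.5% and 7.98% of all genes tested in both comparisons were higher and lower. Without 1 of the *vas*-GFP-negative replicates the germline-enriched set held 489 to 524 genes, and 27.2 to 28.0% of those tested were higher in Δ*l(3)mbt* OSCs. Without 1 of the *vas*-GFP-positive replicates the set held 720 to 813 genes, and 24.8 to 25.3% were higher. The set of 1018 genes from DESeq2 had 24.6% higher. The 738 genes had a median of 34.1% of the germ cell level in Δ*l(3)mbt* OSCs and 27.6% in wild-type OSCs. Under 10% of the germ cell level lay 257 of them in Δ*l(3)mbt* OSCs and 289 in wild-type OSCs.

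The 172 germline-enriched genes that were higher than in wild-type OSCs had a median of 45.4% of the germ cell level. Among them, 83 were still lower than in *vas*-GFP-positive cells, 64 were not called (28 with an interval within 2-fold) and 25 were higher. All 738 were chosen with the *vas*-GFP-positive libraries that also enter the comparison with Δ*l(3)mbt* OSCs, so their 423 lower, 45 higher and 171 within-2-fold results in that comparison are a description. *Pxt*, a peroxidase-family enzyme of prostaglandin synthesis that acts in follicles, had a large gain over wild-type OSCs. It had 5759, 5989, 5850 and 5762 in Δ*l(3)mbt* OSCs and 2914, 2544 and 3175 in *vas*-GFP-positive cells, against 7.78 ± 0.494 in wild-type OSCs (SD, n = 4). The log2 difference was 9.41 from wild-type OSCs (adjusted p = 6.49e-17 from limma) and 1.03 from germ cells, the second a call that was lost under total-read and quantile scaling and without *vas*-GFP-positive replicate 2.

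The vitelline membrane and yolk uptake genes of the germline differed from *Pxt*. *fs(1)N*, a vitelline membrane protein, reached 22.6% of the germ cell level in Δ*l(3)mbt* OSCs and 3.89% in wild-type OSCs. *fs(1)M3* and *clos*, which act in the same layer, had 0.688 ± 0.557 and 9.68 ± 2.32 in Δ*l(3)mbt* OSCs, against 2945 ± 191 and 2953 ± 307 in *vas*-GFP-positive cells. *yl*, the yolk protein receptor of the oocyte, had 8.14, 9.34, 10.2 and 12.8 in Δ*l(3)mbt* OSCs, against 23850, 22170 and 25232 in *vas*-GFP-positive cells (0.0426%).

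The follicle cell programme was kept in part. Of 16 follicle cell identity genes, 9 were higher than in *vas*-GFP-positive cells, 4 lower and 1 within 2-fold. The list median was 308% of the level in *vas*-GFP-positive cells in Δ*l(3)mbt* OSCs and 316% in wild-type OSCs. Against wild-type OSCs, 5 of the 16 genes were higher and 2 lower in Δ*l(3)mbt* OSCs. *tj*, the Maf factor of ovarian somatic cells, had 6650, 6002, 5912 and 7310 in Δ*l(3)mbt* OSCs and 503, 861 and 543 in *vas*-GFP-positive cells. The Δ*l(3)mbt* libraries were all above (log2 difference 3.38, SE 0.18, adjusted p = 1.26e-06 from limma), with wild-type OSCs at 4522 ± 693 (SD, n = 4) and *vas*-GFP-negative cells at 9710 ± 595 (SD, n = 3). *zfh1*, *br*, *eya*, *bab1*, *bab2*, *mid* and *mirr*, all transcriptional regulators, and the Hedgehog receptor *ptc* were the other higher genes. The follicle cell marker *Fas3* was not called. *eya*, which sets follicle against polar and stalk fate, had 1179 ± 65.8 in Δ*l(3)mbt* OSCs and 194 ± 19.6 in *vas*-GFP-positive cells.

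The lower members were *peb*, *Six4*, *ct* and *pnt*, each with a higher mean in *vas*-GFP-negative than in *vas*-GFP-positive cells. *peb*, the zinc finger protein Hindsight of mid-stage follicle cells, had 5.03 ± 1.10 in Δ*l(3)mbt* OSCs and 976 ± 131 in *vas*-GFP-positive cells, with *vas*-GFP-negative cells at 5764 ± 152. The calls of *ct* (log2 difference -1.10) and *pnt* (-1.09) were not stable: each was lost without Δ*l(3)mbt* replicate 1 or 2, and *ct* also without replicate 3 or 4 or without *vas*-GFP-positive replicate 3, whereas *pnt* was also lost without *vas*-GFP-positive replicate 1. Somatic markers were present in *vas*-GFP-positive cells at the shares given above, and the part of follicle RNA in these and the following results was not tested. In bulk libraries, fewer cells of a type and less RNA per cell cannot be told apart.

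Late follicle products were low in OSCs. Of 15 eggshell and yolk genes tested of 27 listed, 11 were lower and 2 higher, and 8 of the lower genes had a higher mean in *vas*-GFP-negative than in *vas*-GFP-positive cells. *Yp1*, a yolk protein, had 21.4 ± 2.64 in Δ*l(3)mbt* OSCs and 1319 ± 333 in *vas*-GFP-positive cells, with 48873 ± 1729 in *vas*-GFP-negative cells. The eggshell protein gene *dec-1* and *Pxt* were the higher genes, *dec-1* with 3197 ± 95.4 in Δ*l(3)mbt* OSCs and 269 ± 36.0 in *vas*-GFP-positive cells. Of 16 basement membrane and integrin genes, 10 were higher and 3 lower. Against wild-type OSCs, 2 of the 16 were higher and 6 lower in Δ*l(3)mbt* OSCs. Laminin *LanA* had 19454 ± 977 in Δ*l(3)mbt* OSCs and 2673 ± 327 in *vas*-GFP-positive cells. The collagen IV gene *Col4a1* had 37.0 ± 8.22 in Δ*l(3)mbt* OSCs and 1415 ± 147 in *vas*-GFP-positive cells, and it was also lower than in wild-type OSCs (356 ± 174, log2 difference -3.19).

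**Figure D4:**
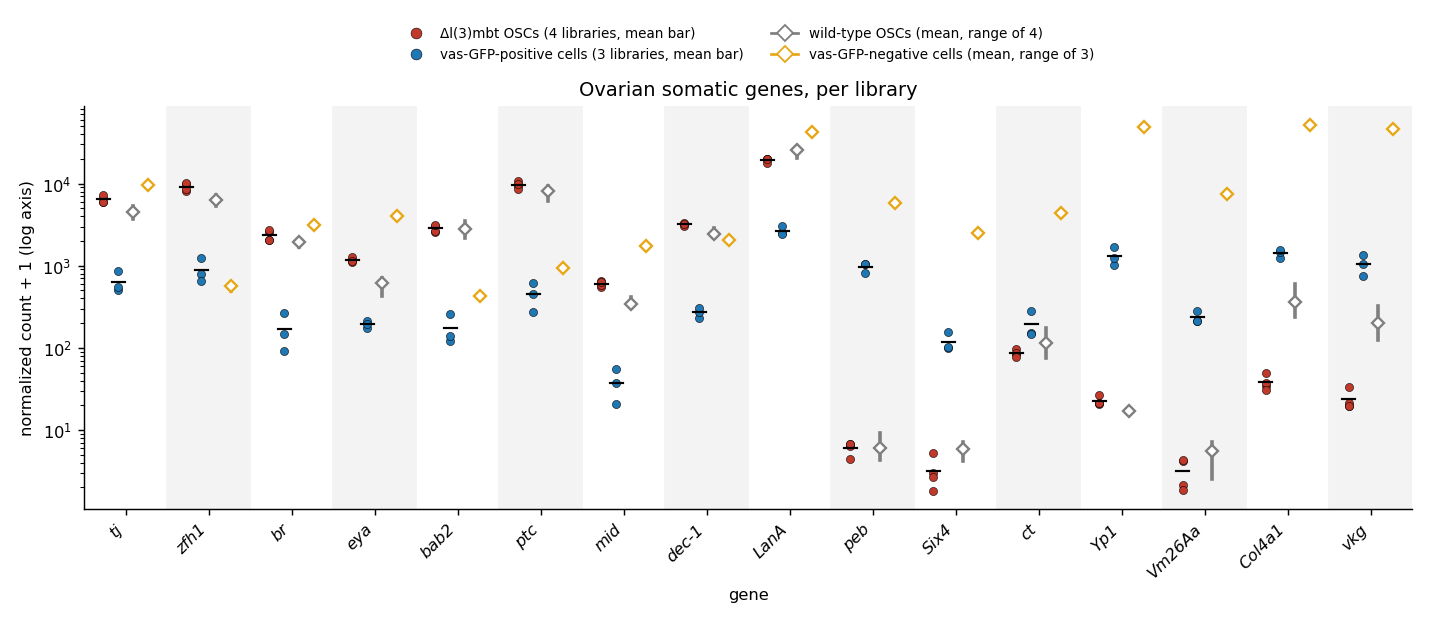
Normalized counts (plus 1, log axis) of ovarian somatic genes in each Δ*l(3)mbt* OSC library (red) and each *vas*-GFP-positive library (blue), with bars at group means, and the mean and range of wild-type OSCs (grey) and *vas*-GFP-negative cells (yellow). *tj*, *zfh1*, *br*, *eya*, *bab2*, *ptc*, *mid*, *dec-1* and *LanA* were higher in Δ*l(3)mbt* OSCs, and the genes from *peb* to the right were lower.

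The largest rises over germ cells included genes higher in Δ*l(3)mbt* than in wild-type OSCs and genes that wild-type OSCs already expressed. *Arpc3B*, a paralogue of an Arp2/3 complex subunit, had 273, 252, 289 and 271 in Δ*l(3)mbt* OSCs and no read in *vas*-GFP-positive cells, at least 186-fold higher with a floor of 3 reads over the germ cell group. Wild-type OSCs had 2.88 ± 0.960, so that this gene was near 0 in both the parental line and the germ cells. *CG3556* had 1250 ± 63.8 in Δ*l(3)mbt* OSCs, 8.27 ± 1.10 in *vas*-GFP-positive cells and 39.8 ± 13.1 in wild-type OSCs. *CG10126* had 549.6 ± 43.5 in Δ*l(3)mbt* OSCs, 4.01 ± 1.73 in *vas*-GFP-positive cells and 12.1 ± 0.893 in wild-type OSCs. Both genes were also higher in Δ*l(3)mbt* OSCs than in either other group, but wild-type OSCs expressed them above the germ cell level. *CG12698* had 278 ± 34.3 in Δ*l(3)mbt* OSCs against 1.93 ± 2.25 in *vas*-GFP-positive cells and 0.816 ± 0.640 in wild-type OSCs. By contrast *CG7406*, without a read in *vas*-GFP-positive cells, had 128 ± 29.0 in Δ*l(3)mbt* OSCs and 142 ± 32.5 in wild-type OSCs. *beat-VII* and *dpr17*, immunoglobulin-domain genes known from neurons, had 617 ± 89.8 and 2374 ± 280.5 in Δ*l(3)mbt* OSCs against 3.55 ± 1.83 and 27.9 ± 9.57 in *vas*-GFP-positive cells. *lncRNA:CR45706*, *snoRNA:Psi18S-1377d*, *CG8468*, *asRNA:CR43467* and *gudu* completed the 12 largest rises.

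The 12 largest falls were *otu*, *yl*, *dhd*, *fs(1)M3*, *ZnT35C*, *osk*, *CG5958*, *zpg*, *Ork1*, *hb*, *retn* and *asRNA:CR45481*. *hb*, the gap gene whose RNA is loaded into the egg, had 1 read over the Δ*l(3)mbt* libraries and 1066 over the *vas*-GFP-positive libraries, a ratio of germ cells over Δ*l(3)mbt* OSCs of 2937 with a 95% counting interval of 526 to 116120. *retn*, an ARID-domain factor, had 0.583 ± 0.397 in Δ*l(3)mbt* OSCs and 702 ± 120.2 in *vas*-GFP-positive cells, and was the member of this group with a high level in wild-type OSCs (497 ± 246, log2 difference from wild type -8.67, adjusted p = 5.6e-10 from limma).

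From a list of regulators of transcription and chromatin given by the study, 674 genes were tested. Of these, 66 were higher and 93 lower, near the background shares, and 290 lay within 2-fold. The largest rises were *tx*, *croc*, *pdm3*, *bin*, *bowl*, *dsx*, *bab1*, *fru*, *bab2* and *mid*. The sex determination factors *dsx* and *fru* had 5681 ± 388 and 2622 ± 227 in Δ*l(3)mbt* OSCs, against 231 ± 78.6 and 139 ± 38.6 in *vas*-GFP-positive cells, and neither was called against wild-type OSCs. The forkhead factor *croc* had 2712 ± 50.5 in Δ*l(3)mbt* OSCs and 66.0 ± 25.6 in *vas*-GFP-positive cells. The largest falls were *hb*, *retn*, *cad*, *sim*, *stil*, *peb*, *CG17801*, *CG43689*, *tsh* and *BigH1*. *stil*, which activates *otu* in the germline, had 0.809 ± 1.27 in Δ*l(3)mbt* OSCs and 356 ± 109 in *vas*-GFP-positive cells, with no read in wild-type OSCs.

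Most genes of the housekeeping lists differed little between Δ*l(3)mbt* OSCs and *vas*-GFP-positive cells. Of 83 cytoplasmic ribosomal protein genes none was called and 81 lay within 2-fold, though 1 reached a log2 difference of -2.80. Between the sorted fractions, 61 of the 83 were lower in *vas*-GFP-positive than in *vas*-GFP-negative cells. Of 33 cell cycle and dREAM genes, 24 lay within 2-fold. *dup* and *geminin* were higher, and *CycA*, *CycB*, *fzr* and *mip120* lower. Their shares higher (6.06%) and lower (12.1%) were not above those of all tested genes (12.4% and 12.6%). The replication helicase gene *Mcm5* had 2369 ± 78.5 in Δ*l(3)mbt* OSCs and 2405 ± 96.3 in *vas*-GFP-positive cells. Of the 5 genes listed for L(3)mbt complexes, *Lint-1*, *CoRest*, *HDAC1* and *Caf1-55* lay within 2-fold, with log2 differences of 0.40 to 0.76, and the higher gene was *l(3)mbt* itself.

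**Figure D5:**
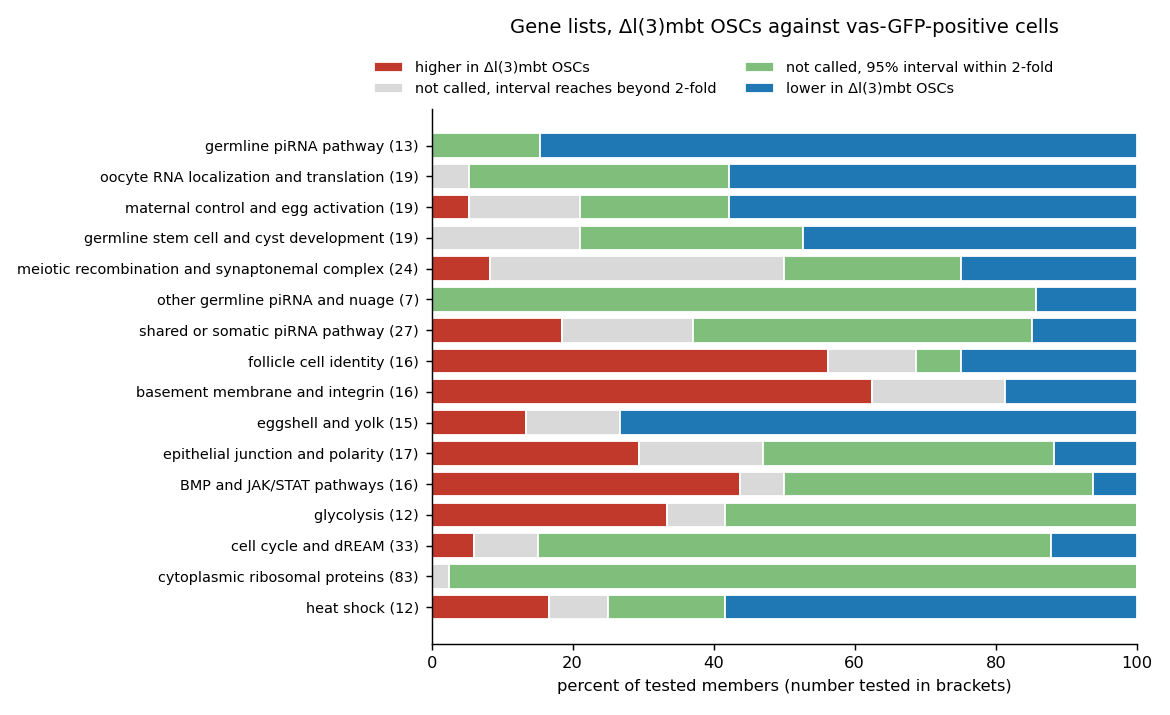
Share of the tested members of each gene list (percent, number tested in brackets) that were higher in Δ*l(3)mbt* OSCs than in *vas*-GFP-positive cells (red), lower (blue), not called with a 95% interval within 2-fold (green), or not called with a wider interval (grey). Of all tested genes 12.4% were higher and 12.6% lower. The germline piRNA list had 11 of 13 members lower and the follicle cell identity list 9 of 16 higher.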

How the data were processed

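RNA-seq was compared between 4 libraries of Δ*l(3)mbt* OSCs and 3 of *vas*-GFP-positive cells, with 4 of wild-type OSCs and 3 of *vas*-GFP-negative cells as background. After trimming with cutadapt 1.18, the authors aligned reads to BDGP6 using STAR 2.7.3a, counted reads on the stranded gene models with featureCounts (Subread 1.5.3), and deposited signal values that are counts over each library's size factor from DESeq2 1.30.1, one table per experiment. Because each table had been scaled apart, whole reads were recovered from the step of each column (100% of values whole within 0.01 of a read) and divided by median-of-ratios size factors over the 7 libraries together, with the background libraries scaled to the same reference. Genes with a mean of at least 2 were tested with limma 3.58.1 (trend, robust, R 4.3.3) on log2(normalized count + 1) with Benjamini-Hochberg adjustment over all tested genes, so that changes of low genes are understated. Genes were called at a log2 difference beyond 1 and adjusted p under 0.01, or beyond 0.6 and under 0.05 for Δ*l(3)mbt* against wild-type OSCs. The other comparisons were scaled and tested within their own libraries. A gene lay within 2-fold where its 95% limma interval did. A gene without a read was given a floor of 3 reads over the group, which covers counting error only. Levels were not compared between genes, since counts were not divided by length.

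Count tests on the recovered reads (edgeR 4.0.16, DESeq2 1.42.0), other scalings, filters, pseudocounts, a replicate block and leaving out each library were alternatives. Named genes were those the study names, the 12 largest rises and falls with a mean of at least 100 in the higher group and groups that did not overlap, the 10 largest rises and falls among regulators, and members of functional lists with the largest changes, an interval within 2-fold or a defining role. Members and lists were chosen with earlier results of these data known. Scripts were tested on simulated data. Coordinates were read from Ensembl gene models on BDGP6. The other 16 libraries of the series were not used here.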

Additional observations from a re-analysis of the deposited data

Results flagged for a closer look

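Of 91 values tested in the 4 libraries of Δ*l(3)mbt* OSCs, 10 had 1 library far from the other 3, its gap exceeding 0.829 of the whole range, where chance gives about 1 in 20. For *hb*, *ZnT35C* and *asRNA:CR45481* that rate does not apply, since the other 3 libraries were at 0 and the gap was the whole range by construction. In replicate 3, *gudu* was highest at 218.1 normalized counts (197 to 199 in the others), *BoYb* lowest at 68.2 (91.4 to 95.2), and the summed levels of other germline piRNA and nuage genes (10360, others 11173 to 11236) and of Notch pathway genes (6237, others 7129 to 7220) were lowest. In replicate 1, *hb* had its only read (0.814) and the summed meiotic genes were lowest at 6160 (others 6418 to 6451). In replicate 2, *ZnT35C* (1.33) and *asRNA:CR45481* (2.67) had their only reads in this group. In replicate 4, *peb* was lowest at 3.40 (others 5.34 to 5.70) and the summed innexin genes highest at 3619 (others 3047 to 3054).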

How the results depend on the processing

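No gene of the lists or named genes that was called changed the sign of its difference from *vas*-GFP-positive cells under the alternatives run, whereas genes not called, such as *krimp*, *del*, *mael*, *Sxl* and *twin*, did under some. Higher genes outnumbered lower ones under TMM (1357 and 1206) and quantile normalization (1410 and 1188). They also did so without a filter on low values (1325 and 1248) and at a pseudocount of 0.5 (1306 and 1280). The same order held with a replicate block (996 and 939), with a weight per group (1188 and 1078) and without *vas*-GFP-positive replicate 1 (1463 and 1378). Joining the deposited values without scaling the tables together gave 3687 higher and 733 lower genes in Δ*l(3)mbt* OSCs against *vas*-GFP-positive cells, in place of 1271 and 1294, and shifted the median of all genes to 0.89 by construction, since each table had its own size factors. *tej*, *BoYb*, *boot*, *Nxf3* and *cuff* were then no longer called lower. edgeR called 1169 higher and 1228 lower genes, DESeq2 1257 and 1630, and limma with a weight per group, added after seeing the data because germ cell libraries spread more, 1188 and 1078, with 2660 rather than 3142 genes within 2-fold. Total-read scaling lowered the median level reached by germline piRNA pathway genes from 27.1 to 23.0%. For stem cell and cyst genes it fell from 47.0 to 34.2%, and for oocyte RNA genes from 31.7 to 27.1%. For meiotic genes it fell from 63.1 to 53.9%, and for maternal genes from 27.7 to 23.5%. TMM raised these medians, to 28.5, 49.2, 33.2, 66.2 and 29.0% in the same order. Each scaling multiplies all genes of a library by the same factor, so a shared shift of the lists follows by construction. Why the stem cell and cyst median fell further was not tested. Leaving out 1 library gave 1033 to 1465 higher and 1107 to 1550 lower genes. Between *vas*-GFP-positive and *vas*-GFP-negative cells it gave 489 to 813 higher and 490 to 972 lower genes, with the lowest counts, 489 and 490, without *vas*-GFP-negative replicate 3.

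Same-numbered libraries of Δ*l(3)mbt* OSCs and *vas*-GFP-positive cells did not deviate together (correlations of -0.0544 to -0.00674), and were not treated as pairs. For *vas*-GFP-positive and *vas*-GFP-negative cells these correlations were -0.0458 to 0.0233. That comparison was also fitted without pairs, though a shared sort of same-numbered libraries is neither stated nor excluded. A replicate block gave 996 higher and 939 lower genes, and 1041 and 787 against wild-type OSCs, and it removed the calls of *moon* and *cuff*. Depth limits genes of a few counts in *vas*-GFP-positive cells, where 1 read was worth 1.13 to 2.20 normalized counts.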

Other observations

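Small nucleolar RNAs were low in the *vas*-GFP-positive libraries relative to each group they were tested against. Of 148 tested, 48 were higher in Δ*l(3)mbt* OSCs than in *vas*-GFP-positive cells and none lower, with a median log2 difference of 2.48, and of 20 small nuclear RNAs 7 were higher and none lower. Between *vas*-GFP-positive and *vas*-GFP-negative cells 34 of 141 small nucleolar RNAs were lower and none higher (median -2.82), and against wild-type OSCs 25 of 146 were higher and 2 lower in Δ*l(3)mbt* OSCs (median 0.69). The part of fragment size and of RNA recovery in these short RNAs was not tested.

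Of 12 glycolysis genes, 4 were higher in Δ*l(3)mbt* OSCs, none lower and 7 within 2-fold of *vas*-GFP-positive cells. *Ldh*, lactate dehydrogenase, had 10240, 8613, 4458 and 8157 in Δ*l(3)mbt* OSCs and 241, 284 and 383 in *vas*-GFP-positive cells, the groups far apart, with 7000 ± 4070 in wild-type OSCs (SD, n = 4). Of 16 genes of the BMP and JAK/STAT pathways, 7 were higher, 1 lower and 7 within 2-fold, and of 9 Notch pathway genes 1 was higher and 1 lower. The Notch shares (11.1% each way) were near those of all tested genes (12.4% higher and 12.6% lower). *chinmo*, a JAK/STAT target, had 8337 ± 636 in Δ*l(3)mbt* OSCs and 653 ± 206 in *vas*-GFP-positive cells, and the ligand *upd2*, with no read in *vas*-GFP-positive cells, was at least 33.8-fold higher. The BMP ligand *dpp* had 143 ± 14.4 in Δ*l(3)mbt* OSCs and 11.3 ± 11.3 in *vas*-GFP-positive cells, against 14.2 ± 4.32 in wild-type OSCs (log2 difference from wild type 3.29). *Xrp1*, a stress-responsive transcription factor, had 13211 ± 1683 in Δ*l(3)mbt* OSCs and 960.3 ± 56.1 in *vas*-GFP-positive cells.

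Of 12 heat shock genes, 7 were lower in Δ*l(3)mbt* OSCs, 2 higher and 2 within 2-fold, and 6 of the lower genes had a higher mean in *vas*-GFP-negative than in *vas*-GFP-positive cells. *Hsp68* had 1927 ± 136 in Δ*l(3)mbt* OSCs and 7103 ± 537 in *vas*-GFP-positive cells, with 14214 ± 424 in *vas*-GFP-negative cells. The sorted cells had been kept at 30 °C for 1 h and the cultures had not, and the part of this step was not tested.

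Of the markers of cell types outside the ovarian lineages, *Hml*, *NimC1* and *He* (haemocytes), *Act88F* and *Tm2* (muscle), and *Fbp1* and *Lsp2* (fat body) were at or near 0 in both groups, whereas other genes of these lists were expressed. Summed haemocyte genes had 1272 to 1367 counts in Δ*l(3)mbt* OSCs and 2504 to 3859 in *vas*-GFP-positive cells, with 1 of 4 tested genes (*crq*) lower. Summed muscle genes had 2177 to 2489 in Δ*l(3)mbt* OSCs and 4619 to 5838 in *vas*-GFP-positive cells, with 4 of 10 (*Act57B*, *sls*, *bt* and *Mef2*) lower. The call of *Act57B* was lost without any 1 of the Δ*l(3)mbt* libraries or *vas*-GFP-positive replicate 2, and that of *sls* without *vas*-GFP-positive replicate 3. Summed fat body genes had 6.82 to 15.5 in Δ*l(3)mbt* OSCs and 90.1 to 358 in *vas*-GFP-positive cells, with 1 of 4 (*apolpp*) lower. The part of such cells in the *vas*-GFP-positive levels was not tested. Of 9 neuronal genes 3 were higher in Δ*l(3)mbt* OSCs and 1 lower. *elav*, a neuronal RNA-binding protein, had 1772 ± 128 in Δ*l(3)mbt* OSCs and 294 ± 56.4 in *vas*-GFP-positive cells, with 447 ± 79.9 in wild-type OSCs, while the synaptic gene *Syt1* had no read in *vas*-GFP-positive cells.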
